A study of Saccharomyces cerevisiae with 12 samples.

Results

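The 5 ribosomal stalk protein genes of budding yeast, RPP0, RPP1A, RPP1B, RPP2A and RPP2B, were examined in a SUMO ChIP-seq data set. They were chosen by name (RPP1, which encodes a subunit of RNase P, is not among them), and are 5 of the 137 ribosomal protein genes (RPGs) and of 6002 nuclear protein-coding genes in the reference annotation. A SUMO peak was assigned to a gene when its summit lay from 800 bp upstream to 100 bp downstream of the start codon, which gave 15 stalk gene peaks of 3486 peaks in 6 lists. The antibody used for the immunoprecipitation recognizes Smt3, which is SUMO in yeast. The cells were W303a with unmodified UBC9 (WT) or ubc9-6, a strain of the same background in which a tandem copy of the ubc9-1 allele at the UBC9 locus gives a SUMO-conjugating enzyme of lower activity. All cultures were in mid-log growth at 30 °C in synthetic complete medium, and the heat-shocked WT cultures then spent 12 min at 37 °C. The 3 groups were untreated WT, untreated ubc9-6 and heat-shocked WT, each with 2 immunoprecipitates and 2 inputs, and the inputs enter only through peak calling.

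The stalk is the flexible arm of the large ribosomal subunit that takes up the translational GTPases during elongation. RPP0 encodes P0, the essential protein that anchors the arm to ribosomal RNA, and the other genes encode the small acidic proteins P1 and P2, which yeast can live without. P1A binds P2B and P1B binds P2A, and these heterodimers attach to P0. SUMO is a small protein that Ubc9 joins to lysines of target proteins, and many of its targets are bound to chromatin. Rap1, a DNA-binding activator that occupies most RPG promoters and recruits Fhl1, is itself a SUMO target. Abf1 takes its place at a minority of RPGs.

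The sequence at each WT untreated summit is given here because the 5 genes differed in the letters around it. Each is 101 bases of the reference strain S288C (RefSeq R64, the sequence of sacCer3), not of W303a, and is written in the direction of the gene from 75 bases before the summit to 25 after it. Capitals mark the letters closest to the Rap1 motif in RPP0, RPP1B and RPP2A, a TATA-type stretch in RPP1A and the summit base in RPP2B. The windows are chrXII:805555-805655 on the plus strand for RPP0, chrIV:310212-310312 on the minus strand for RPP1A, chrIV:229582-229682 on the plus strand for RPP1B, chrXV:253876-253976 on the plus strand for RPP2A and chrIV:1239314-1239414 on the plus strand for RPP2B.
RPP0: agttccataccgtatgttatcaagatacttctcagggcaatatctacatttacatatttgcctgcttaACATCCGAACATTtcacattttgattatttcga
RPP1A: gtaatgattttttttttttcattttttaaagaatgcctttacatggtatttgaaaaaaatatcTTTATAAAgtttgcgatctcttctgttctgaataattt
RPP1B: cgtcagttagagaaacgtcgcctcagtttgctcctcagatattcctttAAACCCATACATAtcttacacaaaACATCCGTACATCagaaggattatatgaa
RPP2A: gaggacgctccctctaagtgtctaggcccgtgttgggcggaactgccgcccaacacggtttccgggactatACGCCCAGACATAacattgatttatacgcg
RPP2B: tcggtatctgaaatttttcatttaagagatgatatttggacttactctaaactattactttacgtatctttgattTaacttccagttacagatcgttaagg

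A search for the 13-position Rap1 motif on both strands, with at most 2 mismatches, found it within 75 bp of the WT untreated summit at RPP1B and RPP2A. RPP1B held 2 copies, each with 1 mismatch, centred -270 and -246 bp from the start codon, which is -21 and 3 bp from the summit. RPP2A held 1 copy with 2 mismatches, centred 2 bp from the summit. At RPP0 the nearest letters had 3 mismatches and were centred -1 bp from the summit. The windows of RPP1A and RPP2B, all 901 bases of each, held no match even with 3 mismatches. Of the 901-base windows of all 6002 genes, 70.9% held a match with at most 3 mismatches and 19.1% one with at most 2. Among the other RPGs with a WT untreated peak, 86 of 122 (70.5%) had a match with at most 2 mismatches within 75 bp of the summit, and 116 of 122 (95.1%) had one with at most 3. The same shares were 13.3% and 28.6% at the summits of 203 peaks of other protein-coding genes (non-RPGs), and 3.80% and 18.0% in the 151 bp before the start codon of all 6002 genes. A match as loose as that at RPP0 was thus common at RPG summits. A match is a description of the letters and not a measured binding site.

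The other motifs did not separate the 5 genes. The letters TATAAA lay at the RPP1A summit on both strands, overlapping each other, with centres -9 and -7 bp from it, and they occurred within 75 bp of 19.7% of the other RPG summits, of 33.5% of non-RPG summits and in 31.5% of the 151-bp stretches before all start codons. RPP2A also had them, 19 bp downstream of its summit. The Abf1 motif, TC and ACG with 7 unspecified bases between them, was found near the summit of RPP1B (62 bp downstream, minus strand) and of RPP2A (-74 bp), against 11.5% of the other RPG summits and 13.3% of the stretches before all start codons. In RPP1A it lay farther off, in overlapping positions on both strands at -225 and -224 from the start codon. The Fhl1 core GACGC was found near the summit of RPP2A (-70 bp), where it overlaps the Abf1 letters, and not near the other summits, against 11.5% of other RPG summits and 7.86% of the stretches before all start codons. RPP1A and RPP2B shared the 10-base stretch AATAGTCCGC on the gene strand, starting -61 and -77 bp from their start codons, and 6 of 6002 gene windows held it. These belong to RPP1A, RPP2B with its divergent neighbour COI1, RPL34B, AFG2 and VPS16. It was singled out after the 10 pairs of stalk genes had been compared.

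The label of the list matters for every comparison between groups, so it was checked first. Of 40 heat-shock genes, 5 had a peak in both WT untreated lists, 13 had one in both lists labelled ubc9-6, among them HSP104, HSP26, HSP82, SSA4 and HSP78, and 0 had one in both of the heat shock lists. Over all genes the shares were 10.9%, 8.96% and 3.70%, so that the count under the ubc9-6 label lay well above its share and the other counts lay near theirs. Peaks at heat-shock genes were thus found under the ubc9-6 label and not under the heat shock label. The labels may be exchanged, and the lists are called by them throughout. The direction of any difference between the groups rests on them. The lists held 714 and 842 peaks in WT untreated, 600 and 709 in the lists with the ubc9-6 label, and 302 and 319 in the lists with the heat shock label. Non-RPG peaks numbered 171 and 203 in WT untreated, 92 and 134 under the ubc9-6 label, and 5 and 9 under the heat shock label. The tRNA gene peaks numbered 265 and 264, 259 and 261, and 248 and 260 in the same order. The authors describe ubc9-6 as nearly removing SUMO peaks at non-RPG promoters, while some peaks, chiefly at tRNA genes, stay. What these counts mean for the labels was not tested. The deposited lists state no read depth. The fragments recovered from them put the genome background at 114 to 140 per base and the median summit at 587 to 740 fragments, for which the counting error is 3.68% to 4.13%. A lower limit on what could be called is set by the weakest summits listed, which held 152 to 177 fragments.

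In WT untreated cells, 4 of the 5 stalk genes had a SUMO peak in both replicates and RPP1A had a peak in replicate 1. The background was high, since 126 of 137 RPGs (92.0%) had a peak in both lists and 94.9% had one in either, against 656 of 6002 genes (10.9%) with one in both. The lists labelled ubc9-6 had a peak in both replicates at 3 of the 5 (RPP0, RPP1B and RPP2A), against 122 of 137 RPGs (89.1%) and 8.96% of all genes. Under the heat shock label 0 of the 5 had a peak in either replicate, where 17.5% of RPGs had one, and 6 of 137 RPGs (4.38%) and 3.70% of all genes had one in both. With 5 genes these counts do not set the stalk genes apart from the RPGs. They do differ among themselves in the height and place of the peak, as the plot of fold enrichment by list shows.

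**Figure D1:**
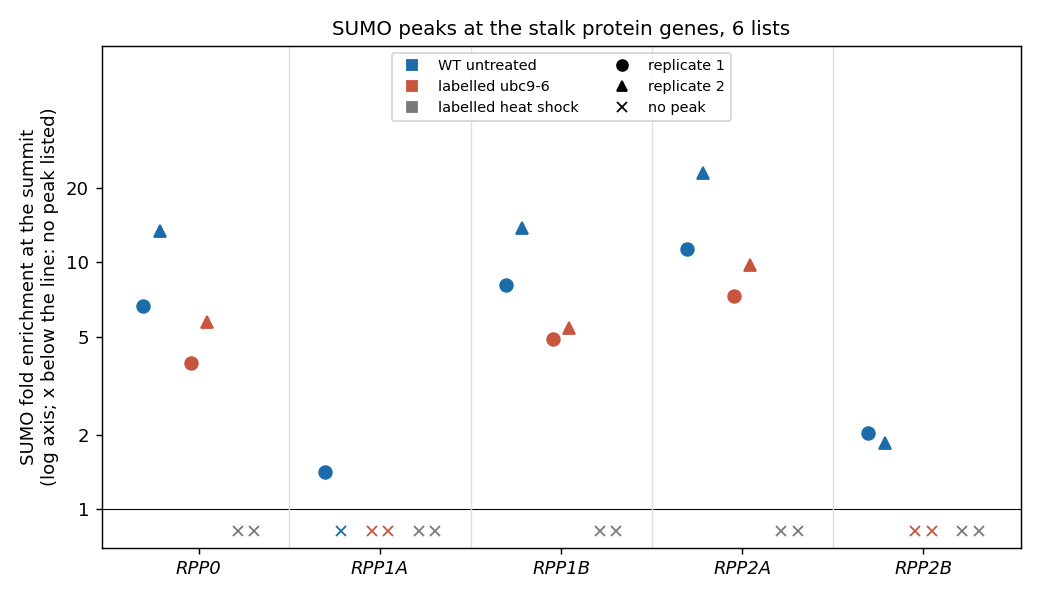
SUMO fold enrichment at the summit (log axis) of each stalk gene peak in the 6 lists, circles for replicate 1, triangles for replicate 2, and crosses below the line where no peak was listed. RPP0, RPP1B and RPP2A lie between 3.90 and 22.9 in 4 lists each, while RPP1A and RPP2B lie between 1.42 and 2.04 and have WT untreated peaks only.

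RPP0 (YLR340W, chromosome XII, 805887 to 806825, plus strand), the gene of the anchor protein P0, had SUMO enrichments of 6.65-fold and 13.4-fold over the local background in WT untreated replicates 1 and 2. Those values rest on 782 and 1699 fragments at the summit. The lists labelled ubc9-6 gave 3.90-fold and 5.72-fold, on 543 and 855 fragments. The values of these groups did not overlap, although the WT replicates differed from each other by 2.02 times. Lower values without overlap were the rule, at 91 of 121 RPGs (75.2%) and 83.2% of all genes with a peak in these 4 lists. All 4 summits fell within 7 bp of each other, from -264 to -257 bp, in the 780 bp between RPP0 and the divergent gene VRP1, which encodes the actin-associated protein verprolin. The same peak also lay in the VRP1 window, at -522 and -524 bp from that start codon in WT untreated, so it cannot be ascribed to either gene by position alone. In WT untreated it ranked 99 among 129 RPGs with a peak and 93 among 127, in the lower part of the RPG range.

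RPP1B (YDL130W, chromosome IV, 229906 to 230527, plus strand, 2 coding exons) encodes P1B. Its peak reached 8.05-fold and 13.7-fold in WT untreated, and 4.90-fold and 5.43-fold in the lists labelled ubc9-6, again without overlap. Most RPGs with a peak in those lists shared this. The summit was at -249 bp in both WT untreated lists and at -245 and -258 bp in those labelled ubc9-6, close to the downstream one of the Rap1-type stretches in capitals. The upstream gene, STF1, runs in the same direction and ends 474 bp before RPP1B, and the peak lay in no other gene's window. Its enrichment ranked 85 of 129 and 91 of 127 among the RPGs with a WT untreated peak.

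RPP2A (YOL039W, chromosome XV, 254297 to 254617, plus strand) encodes P2A, the partner of P1B. It had the strongest peak of the 5 genes, with 11.3-fold and 22.9-fold enrichment in WT untreated on 1331 and 2862 fragments. The lists labelled ubc9-6 gave 7.32-fold and 9.78-fold, both below the WT untreated values, as at most RPGs. The peak was also the widest, 904 and 975 bp in WT untreated, with summits from -351 to -346 bp over 4 lists. RPP2A shares its 719-bp upstream region with RPS15, which is transcribed divergently and encodes a small-subunit protein. The summits lay -369 and -374 bp from the RPS15 start codon in WT untreated, about as far from one gene as from the other, so this is the same peak counted for each gene. Its enrichment ranked 54 of 129 and 42 of 127 among RPGs, near the middle.

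RPP1A (YDL081C, chromosome IV, 309802 to 310122, minus strand), which encodes P1A, had a peak in 1 of the 6 lists. In WT untreated replicate 1 the enrichment was 1.42-fold, on 195 fragments against a local background of 137, and the −log10 of its q-value was 4.36. It was the lowest among the 129 RPGs with a peak in that list and ranked 689 of all 714 peaks. No peak was detected in replicate 2 at the depth of that list, so the signal at RPP1A was not repeated. In replicate 2 and in the lists labelled ubc9-6 the closest summit was 1938 to 1949 bp downstream of the start codon, well past the end of the gene.

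RPP2B (YDR382W, chromosome IV, 1239492 to 1239824, plus strand) encodes P2B, the partner of P1A. Its peak was weak but present in both WT untreated lists, at 2.04-fold and 1.85-fold on 239 and 231 fragments. No peak was listed in the other 4 lists, where the closest summit was 1319 bp or more from the start codon. The WT untreated summits were at -103 and -93 bp, in the 641 bp shared with the divergent gene COI1, and lay -539 and -549 bp from the COI1 start codon. The peak was 218 and 255 bp wide, less than the 601 to 975 bp of the peaks at RPP0, RPP1B and RPP2A. It ranked 124 of 129 and 126 of 127 among RPGs with a peak.

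The order of enrichment in WT untreated was RPP2A, RPP1B, RPP0, RPP2B and RPP1A in replicate 1, and the same without RPP1A in replicate 2. RPP2A was above RPP1B in 4 of 4 lists, although its lowest WT value (11.3-fold) lay below the highest of RPP1B (13.7-fold). RPP1B and RPP0 changed order in 1 of the lists labelled ubc9-6 and did not differ beyond their spread. The step from RPP0 to RPP2B, from 6.65-fold at the lowest to 2.04-fold at the highest, was larger than the spread between replicates. The genes of each heterodimer fell on the same side of this step. P1B and P2A come from genes with strong upstream peaks, while P1A and P2B come from genes with weak peaks near the start codon. Within the strong group RPP1B was closer in WT untreated rank to RPP0 (85 and 91, beside 99 and 93) than to RPP2A (54 and 42). RPP2A shares its peak with RPS15, and the RPP1A peak was not repeated. The heterodimers are 2 pairs, and no test was made of the pairing.

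**Figure D2:**
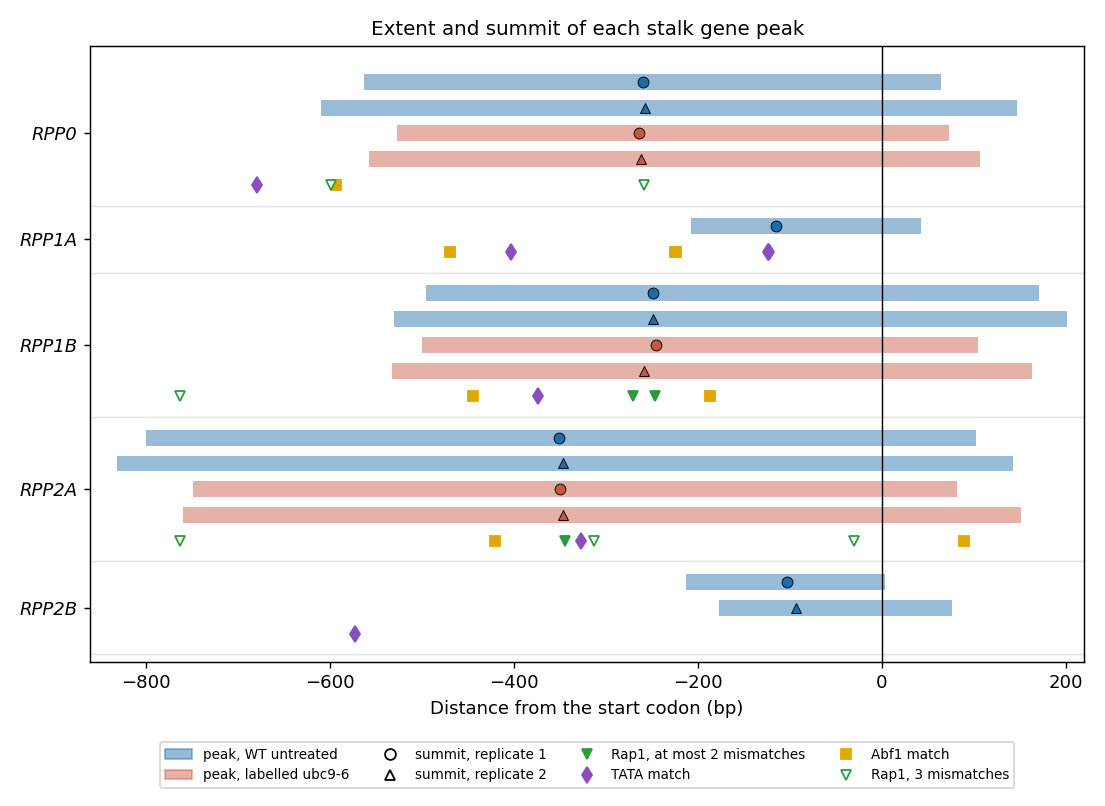
Extent (bars) and summit (circles and triangles) of each of the 15 stalk gene peaks, in bp from the start codon, with motif matches drawn under the peaks of each gene. Filled green triangles are Rap1 matches with at most 2 mismatches, and open ones have 3. Summits of RPP0, RPP1B and RPP2A lie between -351 and -245 bp with a Rap1-type match beside each, and those of RPP1A and RPP2B lie between -115 and -93 bp with none.

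The place of the summit separated the same genes. The median summit of the 124 and 123 RPL and RPS genes with a peak in WT untreated was at -340.5 bp in replicate 1 and -338 bp in replicate 2, with quartiles of -401.75 and -255.5 bp in replicate 1. In replicate 1, RPP2A lay close to that median, and RPP0 and RPP1B lay near the quartile on the side of the start codon. RPP1A and RPP2B were far nearer to the start codon. Of 129 RPGs with a peak in replicate 1, 4 had a summit nearer than that of RPP1A (RPL3, RPL9B, RPP2B and RPS28B). A summit nearer than that of RPP2B was found at 2 (RPL3 and RPS28B). In replicate 2, RPL3 and RPL9B were nearer than RPP2B among 127. For comparison, the peaks of non-RPGs had a median summit at -166.5 and -189 bp, over 202 and 251 pairs of gene and peak. Their quartiles were -288.5 and -84.25 bp in replicate 1, a range that includes both genes. These summits were taken from 500 bp upstream to 200 bp downstream, and those of RPGs from 800 bp upstream to 100 bp downstream. The narrower upstream limit leaves out farther summits, so the medians of the classes are not on equal terms. The median enrichment of the non-RPG peaks was 2.03-fold and 2.12-fold. Of these non-RPG peaks, 50.9% and 35.5% were lower than the RPP2B peak and 8.19% were lower than the RPP1A peak in replicate 1, whereas 97.7% and 99.0% were lower than the RPP0 peak.

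**Figure D3:**
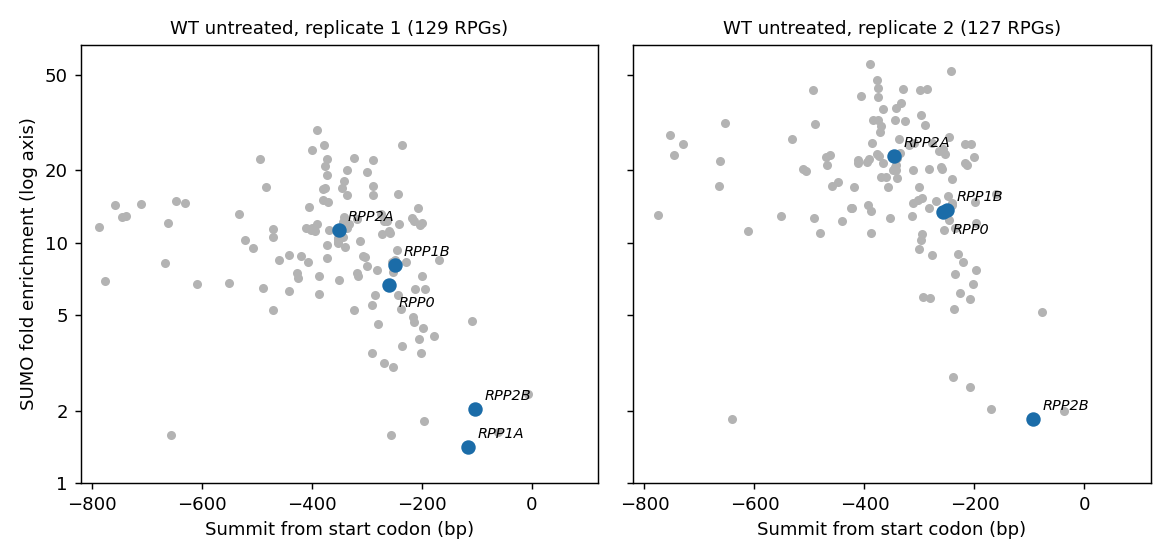
SUMO fold enrichment (log axis) against the distance of the summit from the start codon for each RPG with a WT untreated peak, replicate 1 (129 RPGs) on the left and replicate 2 (127 RPGs) on the right, with the stalk genes in blue. RPP2B (2.04-fold and 1.85-fold) and RPP1A (1.42-fold, replicate 1) sit at the lower right edge of the cloud, and RPP2A (11.3-fold and 22.9-fold) sits near its middle.

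The replicates also differed in another way at the weak peak. Enrichment in WT untreated replicate 2 was 2.02, 1.70 and 2.02 times that of replicate 1 at RPP0, RPP1B and RPP2A, and the median over 126 RPGs with a peak in both was 1.91. At RPP2B it was 0.909 times. RPP2B and RPL3 were the 2 of these 126 RPGs with a lower value in replicate 2 (1.59%), against 79 of 530 other protein-coding genes (14.9%). The 239 and 231 fragments of RPP2B have counting errors of 6.47% and 6.58%, and they differ by less than that.

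The RPGs closest to each stalk gene over the 6 lists were found by the Euclidean distance of their log2 fold enrichments, with no peak set to 0. The candidates were the 122 RPGs outside the stalk with a peak in both WT untreated lists. Stalk genes were not candidates for each other, so a closer one among them would not appear. RPP0 was closest to RPS25A (distance 0.19) and RPS10B (0.21), and RPP1B to RPS6A (0.20) and RPL8B (0.28). RPP2A was at distance 0 from RPS15, with which it shares its peak, and next to RPL27A (0.11). RPP1A was closest to RPS22B (0.90) and RPL3 (1.33), and RPP2B to RPS22B (0.37) and RPS21A (0.47). With RPGs that had a peak in a single WT untreated list added (125 candidates), RPS28B was closest to RPP1A (0.20), with RPS22B next, and the other neighbours were the same. RPS22B had 1.58-fold and 1.85-fold enrichment in WT untreated and RPS21A had 1.82-fold and 2.52-fold, and neither had a peak in the other lists. Their summits were not those of RPP2B, at -656 and -641 bp for RPS22B and at -196 and -209 bp for RPS21A. RPL3, by contrast, had a weak peak even nearer to the start codon, 2.34-fold and 2.00-fold at -6 and -37 bp.

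The lists labelled ubc9-6 were compared with WT untreated. Whether a difference belongs to lower SUMO conjugation or to heat shock rests on that label, which is in doubt, and was not tested. At RPP0, RPP1B and RPP2A, which had a peak in all 4 lists, log2 fold enrichment in the lists labelled ubc9-6 minus WT untreated was -1.0, -1.03 and -0.93, a ratio of 0.50, 0.491 and 0.526. Without WT untreated replicate 2 the differences were -0.49, -0.64 and -0.42, and without replicate 1 they were -1.51, -1.41 and -1.43. With 2 lists against 2 the exact two-sided permutation test cannot go below 0.333, and each gene gave p = 0.333. Fold enrichment was lower in both lists labelled ubc9-6 than in both WT untreated lists at 3 of 3 stalk genes and at 91 of 121 RPGs (75.2%), and at 83.2% of all genes with a peak in the 4 lists, so that most RPGs shared the direction. The median difference over the 121 RPGs was -0.81 (quartiles -0.90 and -0.69, range -1.22 to -0.37). RPP1B, RPP0 and RPP2A were at places 6, 9 and 19 from the most lowered. When each value was divided by the median enrichment of the tRNA gene peaks of its own list, the differences became -0.23 for RPP1B, -0.21 for RPP0 and -0.13 for RPP2A, beside an RPG median of -0.01. On that scale 1 of 3 stalk genes and 5 of 121 RPGs (4.13%) were lower without overlap, as were 16.2% of all genes. The median of the tRNA gene peaks was itself lower in the lists labelled ubc9-6, at 5.11-fold and 6.03-fold beside 8.17-fold and 11.3-fold in WT untreated.

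**Figure D4:**
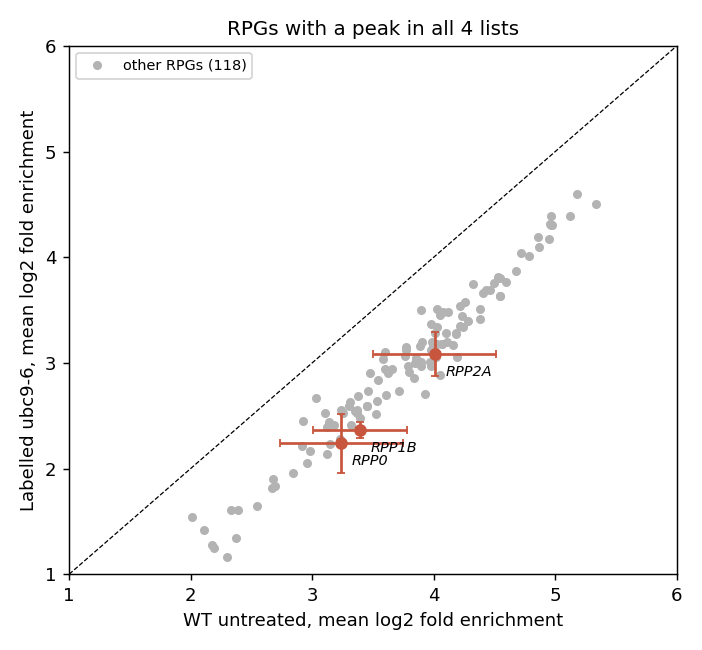
Mean log2 fold enrichment in the lists labelled ubc9-6 against WT untreated for the 121 RPGs with a peak in all 4 lists, with the dashed line at equality and, for the 3 stalk genes, bars from the lower to the higher replicate. RPP0, RPP1B and RPP2A lie off the line by -1.0, -1.03 and -0.93, on the lower side of the RPG cloud.

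RPP2B was one of 3 RPGs that had a peak in both WT untreated lists and none in either list labelled ubc9-6, the others being RPS21A and RPS22B (2.38% of 126). Over all genes this was true of 85 of 656. All of these 3 RPGs were among the weakest in WT untreated, and the lowest enrichments listed were 1.21-fold and 1.19-fold in the lists labelled ubc9-6. A difference for RPP2B or RPP1A has no value, since the lists give nothing where no peak was called.

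Lists labelled heat shock were likewise compared with WT untreated, under the same doubt. All 4 stalk genes with a peak in both WT untreated lists had none in either list labelled heat shock, against 102 of 126 RPGs (81.0%) and 60.7% of all genes. The closest summits to the 5 start codons in those lists were 8727 to 129650 bp away. The weakest RPG peaks listed there were 1.67-fold and 1.47-fold, and the weakest summits of any peak held 162 and 170 fragments. Lower enrichments, down to 1.05-fold and 1.08-fold, were listed only at other sites. The tRNA gene peaks had median enrichments of 5.15-fold and 7.56-fold. The genome background of 114 and 115 fragments was close to the 117 and 124 of WT untreated. Whether the absence belongs to heat shock or to ubc9-6 was not tested, and it rests on labels that are in doubt.

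The stalk works with other proteins, and 29 genes were examined in the same way. They encode its ribosomal neighbours, proteins of its assembly and phosphorylation, factors that act on the ribosome, and members of a stress kinase pathway. In WT untreated 12 of the 29 had a peak in both replicates, under the ubc9-6 label 8 had one and under the heat shock label 1 had one, beside 10.9%, 8.96% and 3.70% of all genes. Of the 29, 5 are RPGs, which are among the 12 and the 8, and the 24 other genes account for 7 and 3. The ribosomal neighbours are themselves RPGs. Their enrichments lay on both sides of the RPG medians, which were 10.3-fold and 20.1-fold in WT untreated replicates 1 and 2. RPL12A and RPL12B, which encode the protein at the base of the stalk, had 9.53-fold and 20.0-fold, and 6.50-fold and 12.7-fold, in WT untreated replicates 1 and 2. RPL10 had 8.29-fold and 14.9-fold, and the ubiquitin-fusion genes RPL40A and RPL40B had 12.0-fold and 23.6-fold, and 7.58-fold and 14.6-fold. All of these 5 genes had a peak in both lists labelled ubc9-6, as did 122 of 137 RPGs (89.1%). MRT4, which encodes the P0-like protein of the pre-ribosome, YVH1, which encodes the phosphatase that releases it, and the casein kinase 2 genes CKA1, CKA2, CKB1 and CKB2 had no peak in any list.

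Genes of the factors that act on the ribosome and of the stress kinase pathway were mixed. TEF1 and TEF2 encode the same elongation factor, eEF1A, and had 2.60-fold and 4.73-fold, and 9.74-fold and 19.1-fold, in WT untreated. TEF2 had its summit at -427 and -428 bp, and the summit of TEF1 moved from -51 bp in replicate 1 to -444 bp in replicate 2. EFT2, which encodes eEF2, had 2.46-fold and 2.26-fold at -64 and -38 bp. Its paralogue EFT1 had no peak. SUP45, which encodes the release factor eRF1, had 2.36-fold and 2.72-fold at -66 and -58 bp, EFB1 of the eEF1B complex had 2.57-fold and 2.03-fold at -57 and -20 bp, and TEF4, also of that complex, had 1.59-fold and 1.46-fold at -49 and -59 bp. These 4 genes, with weak peaks next to the start codon in WT untreated, did not have a peak in both lists labelled ubc9-6. The same was true of 1 of the 4 stalk genes with a peak in both WT untreated lists (RPP2B), of 5 of 126 RPGs (3.97%) and of 143 of 656 genes in all (21.8%). EFB1 had 1 in replicate 1 there, at -642 bp. GCN20 had its peak within 250 bp of a tRNA gene, in all 6 lists, and it was the 1 gene of the 29 with a peak in both lists labelled heat shock.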

How the data were processed

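SUMO ChIP-seq had been done on 6 immunoprecipitates and 6 inputs, and each immunoprecipitate has a deposited peak list. The authors used Bowtie2 2.3.5 for alignment to sacCer3 and MACS2 2.1.1.20160309 for peak calling, with the matching input as control, a q-value limit of 0.05 and no pooling of replicates. The deposited fold enrichment is a linear ratio of fragments to local background at the summit, with a pseudocount of 1. A p-value and a q-value were deposited with every peak, on the −log10 scale. Together the fold and the p-value fix the number of fragments, and 99.0% of the 3486 peaks gave a number within 0.05 of a whole one. The genome background is the 5th percentile of the background over the peaks of a list. Counting errors cover counting only, since fragments were not tagged as single molecules.

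Peaks were placed with the RefSeq annotation of R64, which has the same sequence as sacCer3. The highest peak by q-value was used where a window held several. A peak in the windows of 2 RPGs, as at RPP2A and RPS15, was counted for each gene in ranks, percentiles and medians. A peak within 250 bp of a tRNA gene was called a tRNA gene peak. A non-RPG peak had its summit between 500 bp upstream and 200 bp downstream of the start codon of a protein-coding gene other than an RPG. Peaks assigned to an RPG, and those within 250 bp of a tRNA gene or any other noncoding gene, were left out of that class. Log2 differences were compared with exact two-sided permutation tests over lists. Peaks of the 2 replicates come from independent experiments. No 50-base word within the 351 bp around each summit was repeated in the genome. Genes named in the text are the 5 members and genes whose window held a member's peak. The 2 RPGs outside the stalk most alike to each member, among those with a peak in both WT untreated lists, are also named. So are those of the 29 partner genes with a peak in both lists of a group. RPS and RPL genes nearer to the start codon, genes lost in the lists labelled ubc9-6, partner genes with no peak, RPS28B as a neighbour of RPP1A, 5 of the 13 heat-shock genes and holders of the 10-base stretch were named after their values were seen. STF1 is named as the gene upstream of RPP1B. The members and lists were chosen with earlier results of these data known. The alternatives were other windows, thresholds and scales, and leaving out each list. Python 3.11.15, pandas 2.3.3, numpy 2.4.6 and scipy 1.17.1 were used, and the functions were tested on simulated data.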

Additional observations from a re-analysis of the deposited data

How the results depend on the processing

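The log2 differences kept their sign under all 24 alternative values, but 11 of these differed from the value reported by more than 1.5 times, and p never passed a threshold in this design. Most of the 24 could not have changed sign. The replicate block leaves the difference as it is, and leaving out 1 list cannot reverse it where the groups do not overlap. Only the other scales could have done so, and on each of them the differences stayed negative. They were smallest over the medians of peak classes, at -0.21 for RPP0, -0.23 for RPP1B and -0.13 for RPP2A over the tRNA median. Of the 62 alternative values for the counts, positions, percentiles and motifs, 55 lay within 1.5 times the count or within the replicate spread, and 7 did not. With 2 replicates, either one always lies within that spread, so leaving out a list could not move a position or percentile. A count of 0 could not fall under a stricter setting. Those values were fixed in advance and carry no support. Keeping the best 302 peaks of each list by q-value, as many as the shortest list holds, left 2 stalk genes with a peak in both WT untreated lists and 1 in those labelled ubc9-6, in place of 4 and 3. Taking the midpoint of the peak for its summit moved the WT untreated position to -240 bp at RPP0, -82 bp at RPP1A, -163 bp at RPP1B and -77.25 bp at RPP2B. Allowing at most 1 mismatch left 1 gene with a Rap1 match near its summit in place of 2. The looser 3 mismatches (3 genes) and the scaling by the median RPG peak were added after the data were seen. That scaling gave differences of -0.20 at RPP0, -0.22 at RPP1B and -0.12 at RPP2A.

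Leaving out 1 list at a time gave log2 differences from -1.51 to -0.49 at RPP0, from -1.41 to -0.64 at RPP1B and from -1.43 to -0.42 at RPP2A, so that the size of the drop depended on which WT untreated list was kept. Without replicate 2 of WT untreated RPP1A counts as a peak gene (5 of 5), and without replicate 1 it does not (4 of 5). The replicates share a number and no stated pairing. With the replicate block the differences were again -1.0, -1.03 and -0.93, and the exact sign-flip test over 2 pairs gave p = 0.5, the smallest it can give. The deviations of same-numbered lists correlated at 0.27 over 121 RPGs, and replicate 2 was the higher at 121 (WT untreated) and 120 (labelled ubc9-6) of them. Differences that involve RPP1A, RPP2B or the lists labelled heat shock have no value under any alternative, for want of a peak. The depth limits what can be said of RPP1A and RPP2B, whose summits hold 195 to 239 fragments, close to the 152 and 163 of the weakest peaks listed.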
